A study of Mus musculus with 10 samples.

Results

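Messenger RNA of 10 genes that load, coat and empty lipid droplets, or carry fatty acids into and within the cell, was measured in RAW264.7 cells, a mouse macrophage line. The 10 genes, Plin2, Plin3, Hilpda, Dgat1, Dgat2, Pnpla2, Cd36, Lpl, Fabp4 and Fabp5, were taken by name, out of 43432 mouse Ensembl genes with deposited RNA-seq counts. All 10 passed the filter on low counts that left 14172 genes for testing. The study asked what 9-keto-hexadec-7-enoic acid (**1**, the E isomer), a cyanobacterial fatty acid with an α,β-unsaturated carbonyl, does to macrophages stimulated with lipopolysaccharide (LPS), the bacterial cell wall component that switches on inflammatory genes. There were 5 groups of 2 libraries each. These were cells in solvent alone (0.5% DMSO, no LPS), cells in solvent that also received 1 µg/mL LPS (DMSO + LPS), and cells given **1** at 3.2, 10 or 32 µM with the same LPS. The fatty acid or solvent preceded LPS by 1 h, and cells were harvested for RNA after 12 h. No group received **1** without LPS, so its effect was measured only on top of the LPS response. All libraries come from 1 cell line in culture, and although the labels number the 2 libraries of a group as biological replicates, they do not say how the cultures were separated, so the p-values measure the spread between these libraries.

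A macrophage takes up fatty acids through membrane proteins such as CD36, or after lipoprotein lipase has released them from lipoprotein triglyceride outside the cell, and binds them in the cytosol with small fatty acid binding proteins. Surplus fatty acid is esterified to triglyceride and stored in droplets, whose surface is covered by perilipins, and is released again by lipases at that surface. Macrophages activated by LPS are known to store neutral lipid in droplets, and droplet genes are classic targets of the nuclear receptors that bind fatty acids.

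Library totals ran from 45966803 to 58976377 counts. In the smallest count of each gene the counting error was 10.6% for Dgat2 (89 counts), 8.77% for Fabp4 (130 counts), 5.50% for Hilpda (330 counts), 4.53% for Dgat1 (488 counts) and 2.20% or less for the other 6. Response genes were checked first. Nos2, which LPS induces, had 2 and 0 counts in the DMSO libraries and 11999 and 9463 counts in the DMSO + LPS libraries. Il1b, another such gene, went from 68 and 65 counts to 87546 and 72366. Nqo1, a gene of the antioxidant response, held 121 to 152 counts in DMSO + LPS and 729 to 800 at 32 µM, a log2 change of 2.63. All 8 macrophage markers had counts in all 10 libraries. Their summed level, as counts scaled to the TMM-adjusted library total (CPM), was 10690 to 11544 in DMSO, 9765 to 9843 in DMSO + LPS, 8006 to 8690 at 10 µM and 7539 to 7881 at 32 µM. The markers did not move together with LPS, as 3 were called higher and 3 lower, from log2 -2.32 (Fcgr3) to 1.54 (Cd14), and at 10 µM 0 were called while 4 had an adjusted p below 0.05 (Adgre1, Cd14 and Itgam lower, Csf1r higher). The 6 markers of adipocytes, which use most of the same droplet genes, summed to at most 0.878 CPM. Lep was at 0 counts in every library, Adipoq, Plin1 and Cidec held at most 2 counts in any library, Retn at most 10 and Cfd 2 to 39. Of the other cell types checked, 4 endothelial markers summed to at most 1.19 CPM, 3 hepatocyte markers to at most 0.236 and 3 T cell markers to at most 0.0699. Epithelial transcripts stood out in a pair of libraries. Epcam, Krt18 and Krt8 held 451, 87 and 1039 counts in replicate 1 at 10 µM and 78, 12 and 153 counts in replicate 1 at 3.2 µM, against at most 2 counts of any of them in the other 8 libraries. The changes of Plin2, Fabp4, Fabp5, Cd36 and Dgat2 at 10 µM and of Plin2 at 3.2 µM are given below also without 1 or both of these libraries. Replicate 2 at 32 µM had 4.20% of its counts on ribosomal RNA features, while the other libraries had 0.177% to 0.390%.

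Per transcript length, Lpl and Cd36 were the most abundant of the 10 mRNAs and Dgat2 the least. Levels per length are given as TPM, the count per base of the longest coding transcript scaled to a fixed sum in each library. Mean TPM over the 10 libraries was 611 for Lpl (range 449 to 700) and 515 for Cd36 (428 to 678), and these ranges overlapped. Plin2 followed at 248 TPM (138 to 551), a range that overlapped those of both Cd36 and Fabp5 (mean 167 TPM, range 72.7 to 206). Pnpla2 had 60.6 TPM (44.3 to 71.0). Hilpda at 30.0 TPM (15.6 to 42.9), Plin3 at 26.5 TPM (19.1 to 30.1) and Fabp4 at 23.9 TPM (6.89 to 40.8) overlapped one another, and the range of Fabp4 also held that of Dgat1 (mean 14.0 TPM, 8.82 to 16.7). Dgat2 lay below all of them at 2.84 TPM (1.27 to 3.44). With the combined length of all annotated exons in place of the longest coding transcript, Cd36 passed Lpl, Pnpla2 passed Fabp5 and Dgat1 passed Fabp4. In replicate 2 at 32 µM the TPM of all 10 genes was lower than in replicate 1. That is the library with the high ribosomal RNA share, whose part in the gap was not tested. The lowest TPM of Lpl, Fabp5, Pnpla2, Plin3, Dgat1 and Dgat2 came from it, so the lower ends of their ranges rest on that library.

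**Figure D1:**
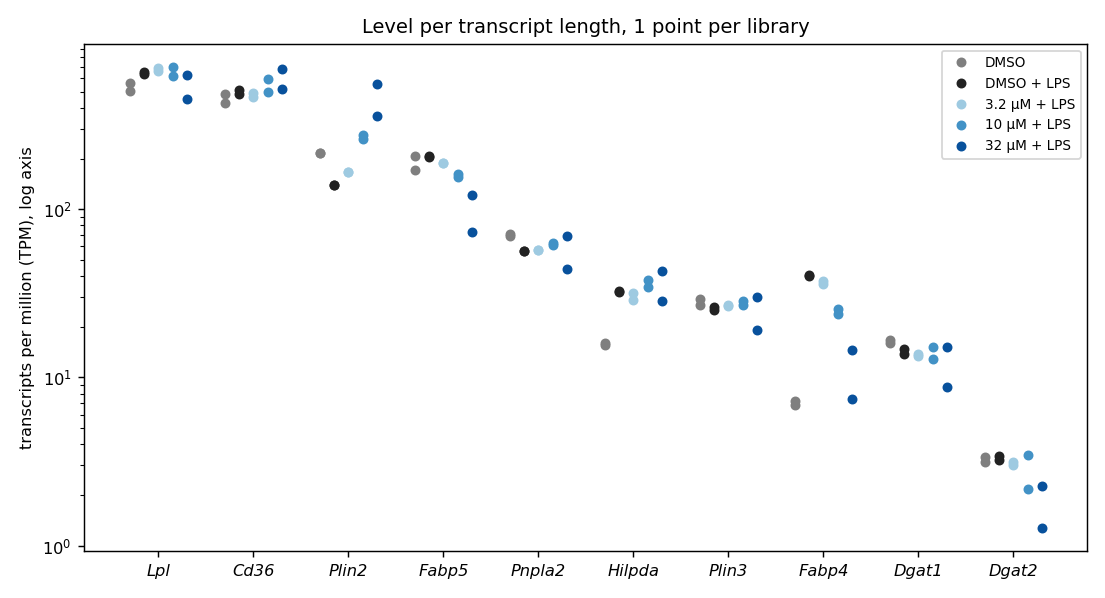
Level of each gene per transcript length in TPM on a log axis, 1 point per library, coloured by group, with genes ordered by their mean over the 10 libraries. Lpl and Cd36 sit at the top (449 to 700 and 428 to 678 TPM) and Dgat2 at the bottom (1.27 to 3.44 TPM), while Plin2 climbs and Fabp4 and Fabp5 descend with the dose of **1**.

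Promoter sequence was looked at for the 5 genes found in a RefSeq table of promoters (GRCm38.p6, 250 bases before and 50 after each transcript start), namely Plin2, Plin3, Cd36, Pnpla2 and Hilpda, the last with 2 starts. The 3 windows that held one of the motifs searched are printed 5′ to 3′ on the strand of the gene, since Plin2 changed most with the dose, Cd36 was also higher at 32 µM and Hilpda rose with LPS. They are chr4:86670010-86670309 (minus strand) for Plin2, chr5:17835847-17836146 (minus strand) for Cd36 and chr6:29272376-29272675 (plus strand) for the second start of Hilpda. The Cd36 window lies inside the annotated gene, chr5:17781690-17888801. Which start these cells use was not tested. Capitals mark the motif matches.
Plin2: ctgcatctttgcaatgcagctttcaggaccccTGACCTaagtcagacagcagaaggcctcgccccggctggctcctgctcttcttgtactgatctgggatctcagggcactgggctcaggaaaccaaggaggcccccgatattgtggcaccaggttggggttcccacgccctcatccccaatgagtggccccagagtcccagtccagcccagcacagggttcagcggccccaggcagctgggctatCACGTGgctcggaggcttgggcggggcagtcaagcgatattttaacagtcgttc
Cd36: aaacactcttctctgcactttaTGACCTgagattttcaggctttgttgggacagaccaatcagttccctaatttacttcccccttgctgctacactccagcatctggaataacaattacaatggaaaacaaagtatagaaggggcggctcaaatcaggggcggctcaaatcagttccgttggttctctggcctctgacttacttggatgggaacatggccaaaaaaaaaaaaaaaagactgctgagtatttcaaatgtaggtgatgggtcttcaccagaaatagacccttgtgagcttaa
Hilpda: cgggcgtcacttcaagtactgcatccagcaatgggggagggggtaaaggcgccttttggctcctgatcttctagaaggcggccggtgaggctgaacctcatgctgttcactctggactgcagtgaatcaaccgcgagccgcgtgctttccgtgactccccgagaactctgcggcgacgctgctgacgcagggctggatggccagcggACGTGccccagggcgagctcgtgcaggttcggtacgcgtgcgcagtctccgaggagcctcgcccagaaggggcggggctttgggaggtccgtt
The motifs were searched on both strands. They were the nuclear receptor hexamer AGGTCA, its direct repeat AGGTCANAGGTCA, the core of the antioxidant response element TGACNNNGC and the core of the hypoxia response element ACGTG. Counting the start base as 0, Plin2 held the hexamer, read on the opposite strand, from -218 to -213, and Cd36 held it from -228 to -223. The capitals at the start site of Plin2 are matches to ACGTG on both strands that overlap each other, from -4 to 0 and from -3 to 1. In Hilpda the match to ACGTG lay from -43 to -39. These short words are common: 16.3% of the 32851 promoters in the table held the hexamer, 19.6% held ACGTG, 12.4% held TGACNNNGC and 0.0396% held the direct repeat. The windows of Plin3, Pnpla2 and the first start of Hilpda held none of the 4, and TGACNNNGC and the direct repeat were in none of the 6 windows.

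The LPS response came first. The test was edgeR's quasi-likelihood F test on all 10 libraries, with p adjusted by Benjamini-Hochberg over the 14172 genes, and a call needed both an adjusted p under 0.05 and a change of 1.5-fold or more. The smallest p that exact permutation of 2 against 2 libraries allows is 0.333, so these p-values rest on a spread shared across groups and genes. The groups were not equally even. Chi-square per degree of freedom between the counts of the 2 libraries of a group was 3.37 at 3.2 µM and 6.24 in DMSO + LPS. It was 40.2 in DMSO, 50.3 at 10 µM and 190 at 32 µM. What this unevenness does to the p-values was not tested. Between DMSO + LPS and DMSO, 2 of the 10 genes were called, both higher, against 28.2% of all genes tested (14.6% higher and 13.6% lower). Both libraries of one group lay above both of the other in 8 of the 10 genes and in 76.9% of all genes. Values by library are counts scaled to the TMM-adjusted library total (CPM).

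Fabp4, a cytosolic chaperone that hands fatty acids between membranes, nuclear receptors and enzymes, rose most. Its level was 2.55 and 2.29 CPM in the DMSO libraries and 16.3 and 17.1 CPM in the DMSO + LPS libraries. Both LPS libraries lay far above both controls, and the change was 6.88-fold (log2 2.78 ± 0.15, SE, n = 2 libraries a group, edgeR adjusted p = 1.6e-06). Hilpda, a small droplet protein that restrains the lipase encoded by Pnpla2, had 6.05 and 5.81 CPM in DMSO and 14.3 and 15.1 CPM in DMSO + LPS. The groups were apart again, with a 2.47-fold rise (log2 1.31 ± 0.09, SE, edgeR adjusted p = 9.14e-06). The sum of the 6 adipocyte markers was higher with LPS too, at 0.0352 to 0.136 CPM in DMSO and 0.716 to 0.724 CPM in DMSO + LPS. This was mainly Cfd and Retn, while Adipoq, Lep and Cidec had 0 counts in both groups. Cfd, the only one of the 6 to pass the count filter, was called (2 and 8 counts against 27 and 33, log2 2.71 ± 0.77, SE, edgeR adjusted p = 0.0187), and Retn went from 0 counts to 6 and 7. At 32 µM Cfd had a log2 change of -0.27 (edgeR adjusted p = 0.899). Whether these transcripts have a part in the rise of Fabp4 was not tested.

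At any fold, 6 of the 10 genes had an adjusted p below 0.05 with LPS, as had 50.9% of all genes tested. The 4 beside Fabp4 and Hilpda were under 1.5-fold. Lpl, the secreted lipase that frees fatty acids from lipoprotein triglyceride, had 819 and 862 CPM in DMSO and 1230 in both DMSO + LPS libraries, a 1.46-fold difference (edgeR adjusted p = 3.99e-05) that was past 1.5-fold at log2 0.61 in the fit with the short-transcript score, the median log2 deviation of a library over genes with transcripts under 1000 nt, as covariate. Cd36, the scavenger receptor that binds long-chain fatty acids and oxidised lipoprotein, had 575 and 612 CPM in DMSO and 788 and 767 CPM with LPS (1.31-fold, edgeR adjusted p = 0.00324). Fabp5, the other binding protein among the 10, had 80.4 and 62.2 CPM in DMSO and a mean of 93.3 ± 2.40 CPM (SD, n = 2) with LPS (1.31-fold, edgeR adjusted p = 0.0262). In all 3 the LPS libraries lay above the controls. Plin2, the perilipin that coats droplets in most cells, went the other way. It had 161 and 151 CPM in DMSO and 120 and 122 CPM in DMSO + LPS, which is 0.77 times the level without LPS (log2 -0.37 ± 0.05, SE, edgeR adjusted p = 0.000308). Scaling by library totals alone lowered the median log2 change of all genes from 0.0026 to -0.20 in this comparison, and gave Plin2 the lowest and Lpl, Cd36 and Fabp5 the smallest values among the alternatives (-0.58, 0.34, 0.18 and 0.18), with no change of sign. Under that scaling the edgeR adjusted p was 0.0675 for Cd36 and 0.246 for Fabp5, so neither passed. Fabp5 also missed the threshold without DMSO replicate 2 (log2 0.20, edgeR adjusted p = 0.157), DMSO + LPS replicate 1 (0.41, 0.0798) or DMSO + LPS replicate 2 (0.36, 0.119).

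The remaining 4 genes did not pass. Plin3, the perilipin that sits in the cytosol and moves to new droplets, had an interval of the log2 change from 0.02 to 0.27 (edgeR adjusted p = 0.0599, and 0.0445 with DESeq2 size factors). Dgat1 and Dgat2, the 2 enzymes of the last step of triglyceride synthesis, had intervals from -0.22 to 0.35 and from -0.24 to 0.84. For Pnpla2, the lipase that takes the first fatty acid off stored triglyceride, the interval ran from -0.20 to 0.10, while the library totals alone gave log2 -0.25 with an edgeR adjusted p of 0.0123. A change of 1.5-fold (0.58 on the log2 scale) is outside these intervals for Plin3, Dgat1 and Pnpla2, but not for Dgat2, the least abundant.

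**Figure D2:**
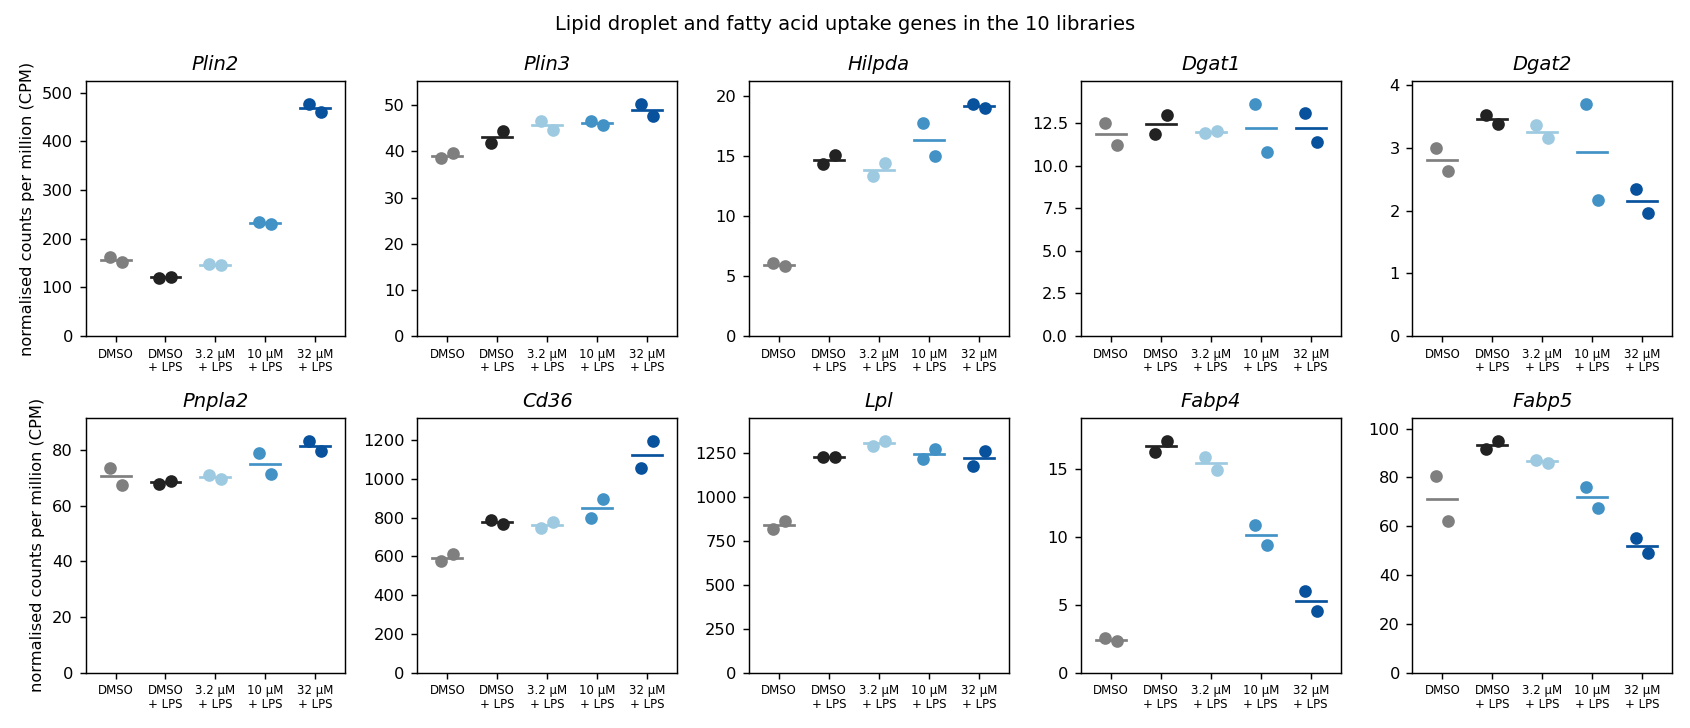
CPM of the 10 genes in each library (points) with the group mean (line), each panel with its own axis from 0, for DMSO, DMSO + LPS and 3.2, 10 and 32 µM of **1** with LPS. Plin2 climbs with the dose to 476 and 459 CPM, Fabp4 rises with LPS to 16.3 and 17.1 CPM and comes down with the dose to 5.99 and 4.53 CPM, and Fabp5 comes down too.

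At 32 µM of **1**, 3 of the 10 genes were called against DMSO + LPS, 1 higher and 2 lower, beside 4.18% of all genes tested (1.27% higher and 2.91% lower). The groups were apart in 8 of the 10 genes and in 50% of all genes. This comparison, those of the other doses and the LPS response share the 2 DMSO + LPS libraries. Plin2 rose, and Fabp4 and Fabp5 fell. Plin2 went from 120 and 122 CPM in DMSO + LPS to 476 and 459 CPM. The 32 µM libraries were well clear of every other library of the series, and the change was 3.87-fold, with a 95% interval from 3.58 to 4.19 (log2 1.95 ± 0.05, SE, n = 2, edgeR adjusted p = 5.21e-07). Among the 14172 genes it ranked 56th from the top by fold change and 8th by p.

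Fabp4 went from 16.3 and 17.1 CPM to 5.99 and 4.53 CPM. The groups did not overlap, the level at 32 µM was 0.32 times that in DMSO + LPS (95% interval 0.25 to 0.39, log2 -1.66 ± 0.14, SE, n = 2, edgeR adjusted p = 0.000184), and both 32 µM libraries stayed above the 2.29 to 2.55 CPM of cells without LPS. Fabp5 went from 93.3 ± 2.40 CPM (SD, n = 2) to 55.1 and 49.0 CPM. It was 0.56 times the DMSO + LPS level (95% interval 0.46 to 0.68, log2 -0.84 ± 0.12, SE, n = 2, edgeR adjusted p = 0.0033), and both 32 µM libraries lay below the DMSO libraries as well. Both genes lie on mouse chromosome 3 (GRCm38), Fabp5 at chr3:10012548-10016607 on the plus strand and Fabp4 at chr3:10204088-10208576 on the minus strand, both protein-coding. Fabp5 shares 5.48% of its 50-base windows with other genes. Among them Gm6166 held 163 to 815 counts a library beside 2216 to 5245 for Fabp5. How reads matching both were assigned is not given in the sources used here, so the Fabp5 values carry that uncertainty.

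The 8 macrophage markers did not move as one at 32 µM. Their sum was lower, with 3 called lower (Fcgr3, Itgam and Lyz2, log2 -0.69, -0.67 and -0.61) and 0 called higher. Adgre1 and Cd14 were lower by an adjusted p but under 1.5-fold (-0.31 and -0.38), Csf1r was higher in the same way (0.40, edgeR adjusted p = 0.00118), and Cd68 and Ptprc did not pass (0.096 and 0.040). Without replicate 2 at 32 µM, the library with the high ribosomal RNA share, Plin2, Fabp4 and Fabp5 had log2 changes of 1.98, -1.48 and -0.76 and stayed called. With both libraries holding epithelial transcripts left out of the fit these were 1.95, -1.66 and -0.84, all called. In bulk RNA, fewer cells and less RNA per cell cannot be told apart, and whether the markers that were lower have a part in the fall of Fabp4 and Fabp5 was not tested.

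At any fold and in either direction, 5 of the 10 genes had an adjusted p below 0.05 at 32 µM, as had 9.78% of all genes tested. Beside the 3 called genes these were Cd36 and Hilpda, both higher and under 1.5-fold. Cd36 went from 788 and 767 CPM to 1056 and 1197 CPM, 1.45-fold (95% interval 1.28 to 1.64, log2 0.53 ± 0.08, SE, edgeR adjusted p = 0.0033), and both libraries lay above all 8 others. Without replicate 1 at 32 µM the estimate was log2 0.62 with an edgeR adjusted p of 0.00438, past the fold criterion. Hilpda went from 14.3 and 15.1 CPM to 19.3 and 19.0 CPM, 1.30-fold (log2 0.38, 95% interval 0.18 to 0.59, edgeR adjusted p = 0.0328). Its adjusted p missed the threshold without either DMSO library (0.053 and 0.0598), either DMSO + LPS library (0.218 and 0.124), either 3.2 µM library (0.0623 and 0.0628) or either 32 µM library (0.125 and 0.117) in the edgeR fit.

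Neither Dgat1, Dgat2, Pnpla2, Plin3 nor Lpl was called at 32 µM. Dgat2 had 3.53 and 3.39 CPM in DMSO + LPS and 2.35 and 1.97 CPM at 32 µM, with both dose libraries lower, but its log2 change of -0.68 ± 0.24 (SE, 89 to 115 counts at 32 µM) had an edgeR adjusted p of 0.137. Leaving out either 10 µM library brought that to 0.0235 (without replicate 1) or 0.0245 (without replicate 2), at a log2 change of -0.68 or -0.69, and the fit with the short-transcript score gave 0.011 at -0.63, so whether it was called depended on these choices. Dgat1 had 11.88 and 12.97 CPM in DMSO + LPS and 13.1 and 11.4 CPM at 32 µM, with overlapping groups and an interval of the log2 change from -0.31 to 0.27. Pnpla2 had 67.8 and 68.9 CPM and then 83.3 and 79.5 CPM, 1.19-fold with an edgeR adjusted p of 0.0505, which passed in other fits (0.0197 with DESeq2's Wald test and 0.0231 with a replicate block). Plin3 had 41.8 and 44.5 CPM and then 50.2 and 47.6 CPM, 1.13-fold with an edgeR adjusted p of 0.0843. With the short-transcript score in the fit that was 0.00832 at log2 0.19. For Lpl the 1175 and 1263 CPM at 32 µM enclosed the 1230 CPM of DMSO + LPS, and the interval of the log2 change was -0.13 to 0.10. The median log2 change over the 10 genes was 0.084, beside 0.0082 over all genes tested.

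**Figure D3:**
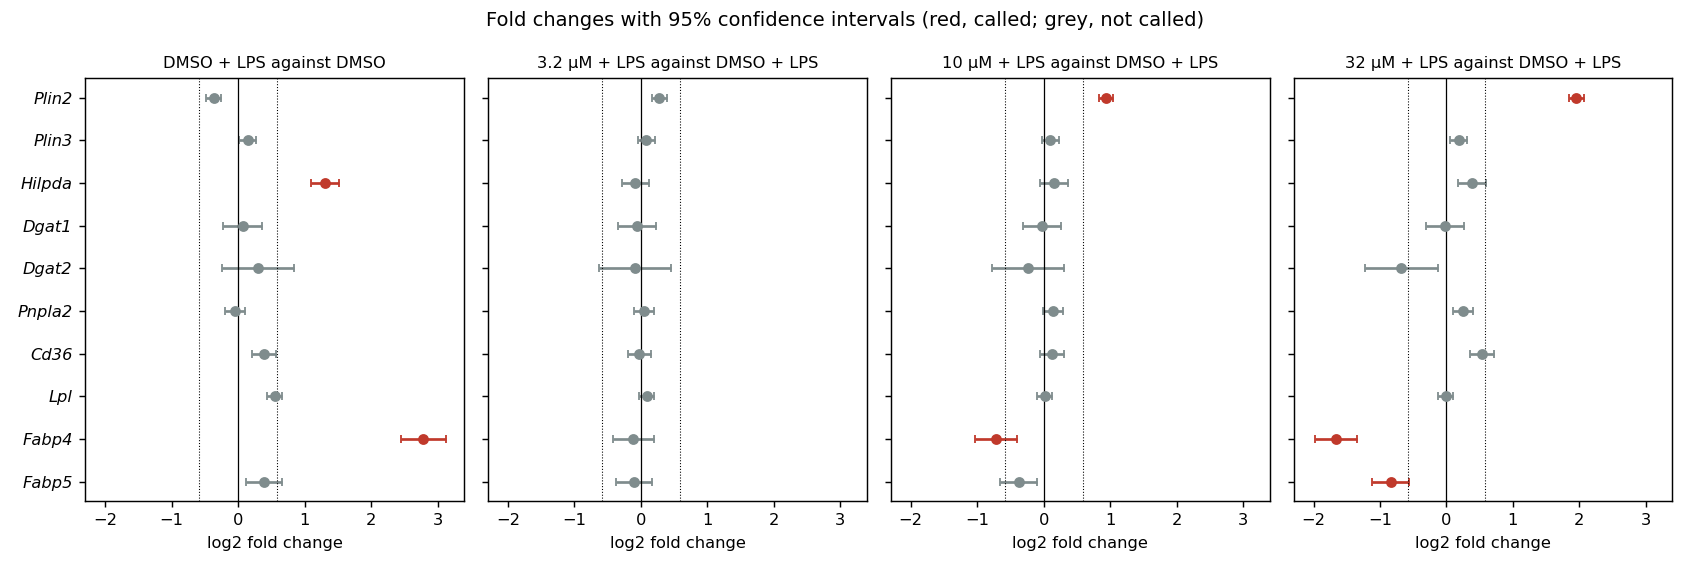
Log2 fold changes with 95% confidence intervals from the edgeR fit for the LPS response and for each dose of **1** against DMSO + LPS, with dotted lines at 1.5-fold and called genes in red. Plin2 moves from -0.37 with LPS to 0.28, 0.94 and 1.95 at 3.2, 10 and 32 µM, and Fabp4 from 2.78 to -0.11, -0.72 and -1.66.

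At 10 µM, 2 of the 10 genes were called, 1 in each direction, beside 0.861% of all genes tested (0.282% higher and 0.579% lower). The same 2 genes were the ones with an adjusted p below 0.05 at any fold (2.67% of all genes), and the groups were apart in 6 of the 10 genes, as in 35.8% of all genes. Plin2 had 234 and 229 CPM against 120 and 122 CPM in DMSO + LPS, 1.91-fold (95% interval 1.77 to 2.07, log2 0.94 ± 0.05, SE, n = 2, edgeR adjusted p = 0.000163). Without replicate 1, one of the libraries with epithelial transcripts, the change was 0.92 with an adjusted p of 0.00146, and with both such libraries left out it was 0.92 with an adjusted p of 0.0161. Plin2 was the gene with the 5th smallest p of all 14172 at this dose.

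Fabp4 had 10.9 and 9.38 CPM at 10 µM, below both DMSO + LPS libraries, a level 0.61 times as high (log2 -0.72 ± 0.13, SE, n = 2, edgeR adjusted p = 0.034). This call depended on single libraries. The adjusted p was 0.0529 and 0.0503 without DMSO replicate 1 and 2, 0.194 and 0.244 without DMSO + LPS replicate 1 and 2, 0.0895 and 0.0905 without 3.2 µM replicate 1 and 2, and 0.0593 and 0.0914 without 10 µM replicate 1 and 2. It was 0.106 in edgeR on the 4 libraries compared and 0.166 with both libraries holding epithelial transcripts left out, and the log2 change stayed between -0.83 and -0.64 in all of these fits. Fabp5 lay lower as well, at 76.1 and 67.6 CPM, with a log2 change of -0.38 that did not pass (edgeR adjusted p = 0.215, and 0.437 at log2 -0.47 without both libraries holding epithelial transcripts). DESeq2's Wald test gave it an adjusted p of 0.0492 and the fit with a short-transcript score 9.25e-05, both under 1.5-fold. Cd36 had 801 and 898 CPM (log2 0.13, edgeR adjusted p = 0.613, and log2 0.21 without both those libraries). Pnpla2 had a log2 change of 0.13 (edgeR adjusted p = 0.487). With the short-transcript score in the edgeR fit the adjusted p was 0.00777 for Cd36 (log2 0.14) and 0.0337 for Pnpla2 (log2 0.12), both under 1.5-fold. Dgat2 was split, with 3.70 CPM in replicate 1 and 2.17 CPM in replicate 2, and its log2 change was -0.24 with both, -0.67 without replicate 1 and 0.073 without replicate 2, so its direction turned with the library left out.

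At 3.2 µM, 0 of the 10 genes met both criteria in the edgeR fit, nor did any other gene tested (0%). At an unadjusted p below 0.05 the edgeR test had 600 of the 14172 genes, and DESeq2's Wald test called 8 genes, none of the 10. Plin2 came nearest, with 147 and 146 CPM, both above the DMSO + LPS libraries and both below the DMSO libraries. Its log2 change was 0.28 (95% interval 0.17 to 0.39), with an unadjusted p of 0.000427 and an adjusted p of 0.457, and it ranked 12th by p. The adjusted p depended on the fit. It was 0.00374 with DESeq2's Wald test, 0.00265 with edgeR on the 4 libraries compared and 0.00166 with the short-transcript score in the edgeR fit, while without 3.2 µM replicate 1, which held epithelial transcripts, it was 1. The log2 change lay between 0.26 and 0.29 in all alternatives, under 1.5-fold. The groups were apart in 7 of the 10 genes and in 45.9% of all genes. The intervals of 9 of the 10 genes, Plin2 included, excluded a 1.5-fold change in either direction, and that of Dgat2 reached -0.63. Apart from Plin2, none of the 10 had an unadjusted p below 0.05 in the edgeR fit.

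Neighbouring doses were also tested against each other. From 3.2 to 10 µM, 1 of the 10 genes was called, with or without the fold criterion (0.254% and 0.903% of all genes, the first with 0.0706% higher and 0.183% lower), and the groups were apart in 7 of the 10 (34.2% of all genes). The gene was Plin2, at 1.58-fold (log2 0.66 ± 0.05, SE, edgeR adjusted p = 0.00169). The adjusted p was 0.0559 without 3.2 µM replicate 1, 0.0697 without 3.2 µM replicate 2, 0.192 with both libraries holding epithelial transcripts left out and 0.149 in edgeR on the 4 libraries compared, at log2 changes of 0.66, 0.65, 0.65 and 0.66. Fabp4 fell short of the threshold in this step (log2 -0.60, edgeR adjusted p = 0.119), but was called with no count filter (0.0321) and in DESeq2's Wald test (0.0111). From 10 to 32 µM, 2 of the 10 were called (1.32% of all genes, 0.169% higher and 1.15% lower), 3 had an adjusted p below 0.05 (2.76% of all genes) and 7 had groups apart (32.6% of all genes). Fabp5 was lower by log2 -0.46 and did not pass (edgeR adjusted p = 0.121). Its adjusted p was 0.0207 with no count filter, 0.0426 with a replicate block and 0.000151 with the short-transcript score in edgeR. DESeq2's Wald test gave 0.00946, and all of these were under 1.5-fold. Plin2 rose 2.02-fold (log2 1.02 ± 0.05, SE, edgeR adjusted p = 7.11e-05, 0.00537 at log2 1.03 without both libraries holding epithelial transcripts, and 0.0603 on the 4 libraries compared). Fabp4 was lower by a further log2 -0.94 ± 0.14 (SE, edgeR adjusted p = 0.0107), which was -0.83 with an adjusted p of 0.0502 without 10 µM replicate 1 and -0.83 with 0.142 when both libraries holding epithelial transcripts were left out, and -0.94 with 0.29 on the 4 libraries compared. Cd36 rose 1.33-fold in this step, with an edgeR adjusted p of 0.0336 that held only without 10 µM replicate 2 or 32 µM replicate 1 among the fits with 1 library left out. Without each of the other 8 libraries it ran from 0.0542 (DMSO replicate 1) to 0.194 (32 µM replicate 2), and it was 0.408 on the 4 libraries compared and 0.296 without both libraries holding epithelial transcripts.

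Set against unstimulated cells, LPS with 32 µM of **1** left 4 of the 10 genes called, all higher, beside 27.1% of all genes tested (13.9% higher and 13.3% lower). At any fold, 8 of the 10 had an adjusted p below 0.05, as had 50.9% of all genes, and the groups were apart in 9 of the 10 and in 71.4% of all genes. Hilpda was 3.23-fold higher (log2 1.69, edgeR adjusted p = 2.45e-06). Plin2 was 3.00-fold higher (log2 1.58, edgeR adjusted p = 1.1e-07), although it was lower with LPS alone. Fabp4 was still 2.17-fold higher (log2 1.12, edgeR adjusted p = 0.000352) and Cd36 was 1.90-fold higher (log2 0.92, edgeR adjusted p = 2.62e-05). Fabp5 stood below the unstimulated level at 0.73 times (log2 -0.45, edgeR adjusted p = 0.014), an estimate that rested on single libraries. It was -0.66 and past the fold criterion without DMSO replicate 2 and also with library totals alone, -0.26 with an adjusted p of 0.0675 without DMSO replicate 1, -0.37 with 0.0836 without 32 µM replicate 2, and -0.47 with 0.0623 in edgeR on the 4 libraries compared. Lpl was 1.45-fold higher (edgeR adjusted p = 4.87e-05, just under the fold criterion), and was past it at log2 0.59 without 32 µM replicate 1. The median log2 change was 0.43 over the 10 genes and 0.019 over all genes.

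Around these 10 genes, 46 further genes of droplet assembly, lipolysis, fatty acid activation and transport, glycerolipid synthesis and fatty acid sensing were followed, of which 34 passed the count filter. LPS called 10 of the 34, 5 higher and 5 lower, a share of 29.4% that is near the 28.2% of all genes tested. Among the higher ones were Ppard, the fatty acid receptor PPARδ (log2 1.22 ± 0.07, SE), Acsl4 and Acsl1, which activate fatty acids to their CoA esters (0.84 and 0.63), Gpat3, of the first step of glycerolipid synthesis (0.72), and Abhd5, the coactivator of the lipase encoded by Pnpla2 (0.66). Among the lower ones were Angptl4, an inhibitor of lipoprotein lipase (-1.28), Lpin1, a phosphatidate phosphatase (-0.995), Nceh1, a cholesteryl ester hydrolase (-0.97), Rxra, the partner receptor of the PPARs (-0.71), and Pparg (-1.17 ± 0.40, SE, edgeR adjusted p = 0.0398), which rested on 8 to 50 counts a library. The Pparg call was lost without either DMSO library (adjusted p = 0.215 and 0.0535), either DMSO + LPS library (0.16 and 0.151) or either 32 µM library (0.0583 and 0.056) in the edgeR fit, with no count filter (0.063) and in DESeq2's Wald test (0.121). Acsl1 dropped just under 1.5-fold without DMSO replicate 1 (log2 0.58), and the library totals alone took Acsl1, Gpat3 and Abhd5 under it (0.42, 0.52 and 0.45), as did the short-transcript score for Abhd5 (0.56).

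At 32 µM, 1 of the 34 was called (2.94%, beside 4.18% of all genes tested). It was Lipa, the lysosomal acid lipase that digests the lipid of engulfed lipoproteins. Its level was 702 and 674 CPM in DMSO + LPS and 1202 and 1226 CPM at 32 µM, with a log2 change of 0.82 ± 0.04 (SE, edgeR adjusted p = 9.42e-06). Of the receptors, Ppard was higher by 0.32 (edgeR adjusted p = 0.0175, under 1.5-fold), while Pparg (0.73, adjusted p = 0.359), Rxra (0.22, adjusted p = 0.156) and Rxrb (0.10, adjusted p = 0.293) did not pass and Ppara, with at most 10 counts, was not tested. At 10 and 3.2 µM 0 of the 34 were called by edgeR, with 4 and 1 at an unadjusted p below 0.05 beside 1709 and 600 of all 14172 genes, and DESeq2's Wald test called 0 at either dose. At 10 µM Lipa was nearest, with 926 and 945 CPM and a log2 change of 0.44 (edgeR adjusted p = 0.00182). The median log2 change of the 34 genes at 32 µM was -0.060. Other coat genes were near the floor, with Plin1, Plin4 and Plin5 at no more than 9 counts in any library. G0s2, another inhibitor of the lipase encoded by Pnpla2, had 0 counts in all 10.

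**Figure D4:**
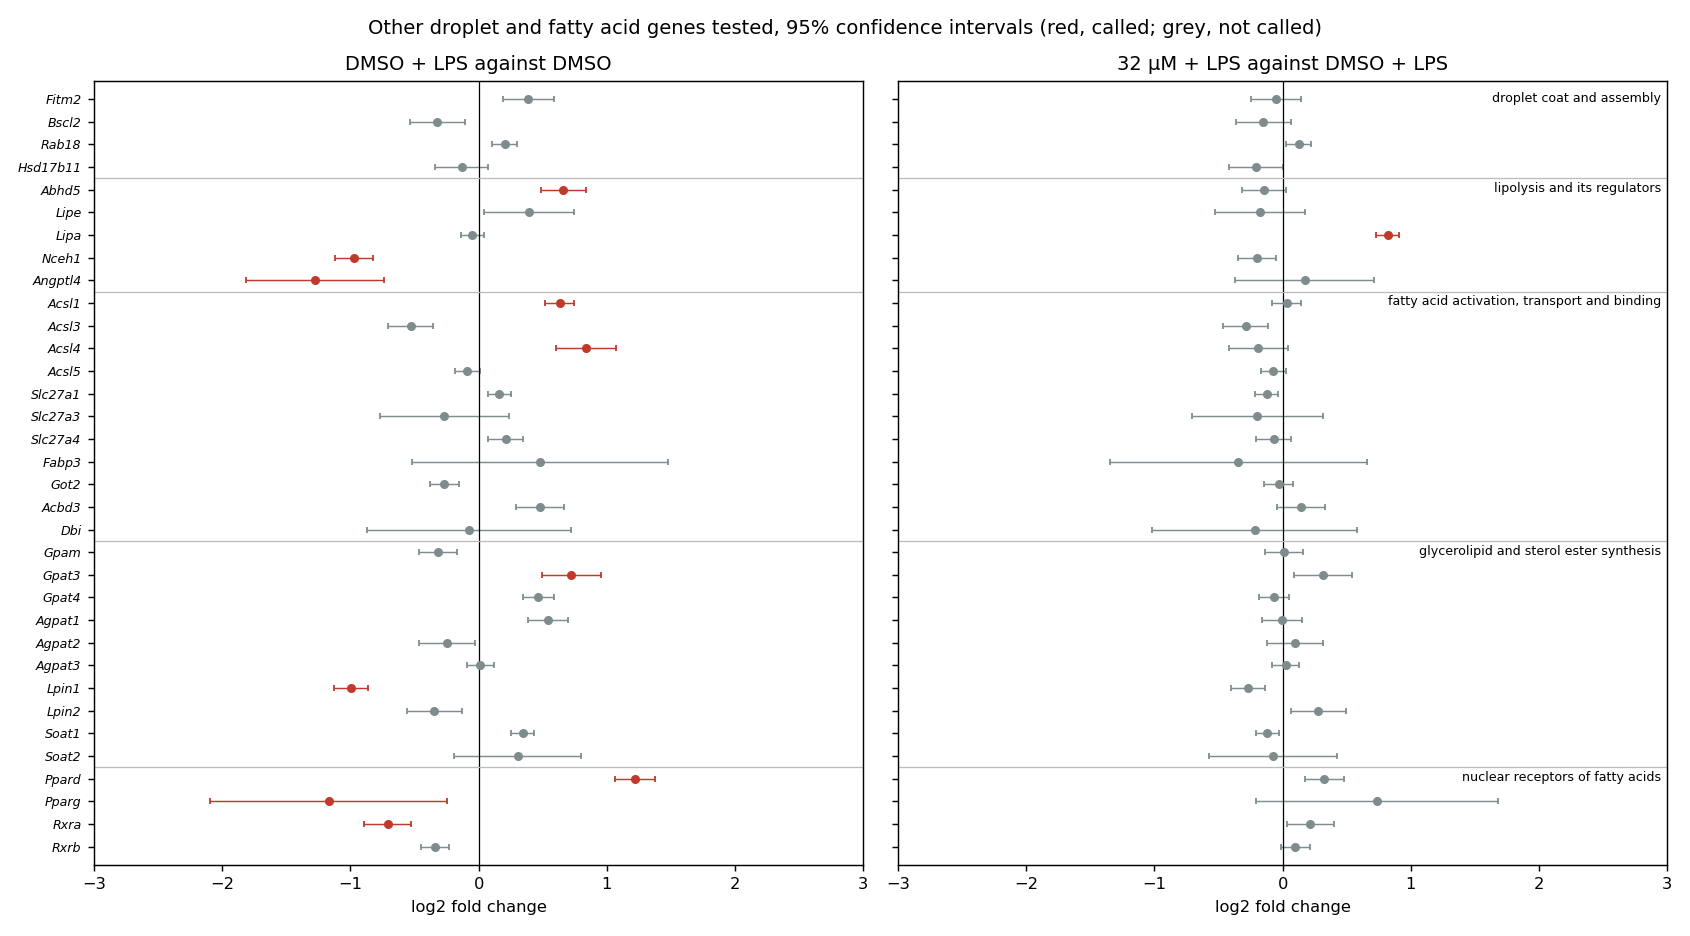
Log2 fold changes with 95% confidence intervals of the 34 further droplet and fatty acid genes tested, by role, for LPS against solvent (left) and 32 µM of **1** against DMSO + LPS (right), with called genes in red. LPS has 10 called genes, from Angptl4 at -1.28 to Ppard at 1.22, while at 32 µM Lipa at 0.82 is the called gene.

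Genes whose level ran most like each of 4 members were found by Pearson's r of log2 CPM over the 10 libraries, among 9561 genes with a mean of at least 5 CPM. These r values are a description: the 10 libraries share 5 conditions and their depth. Closest to Plin2 were Fgd3 (r = 0.985), an exchange factor for a small GTPase, Lipa (0.980) and Taldo1 (0.979), the transaldolase of the pentose phosphate pathway, and 14 genes in all exceeded 0.95. Closest to Cd36 were Fam83h, Me1, the malic enzyme that makes NADPH, and Dnajb4 (0.991, 0.989 and 0.988), with 58 genes over 0.95. The pattern of Fabp4, up with LPS and down with the dose, was that of Ifitm6 (0.998), Rnf114 (0.996) and Calr, the calcium-binding chaperone of the endoplasmic reticulum (0.996), and 258 genes exceeded 0.95. Hilpda ran with Hmox1, the heme oxygenase (0.997), Zdhhc18 (0.996) and Slc3a2, and 504 genes exceeded 0.95. Plin2 had the fewest near matches of the 4, and it alone of them had a negative log2 change with LPS.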

How the data were processed

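RNA of RAW264.7 cells (5 conditions, 2 libraries each) was sequenced from poly(A)-selected, directional libraries on 1 lane. The authors deposited raw counts of reads per mouse Ensembl gene, without normalization. The submitters' processing notes name Trimmomatic, FastQC, STAR, DESeq2 and the build mm10, while the counting tool and its use of strand are not given in the sources used here. Symbols, positions and transcript lengths came from GENCODE M21 on GRCm38, which matched 42548 of the 43432 identifiers. The authors' tables of fold changes and p-values were not used.

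Genes were kept by filterByExpr (minimum count 10), scaled by TMM and fitted in edgeR 4.0.16 (R 4.3.3) with 1 mean per condition over all 10 libraries, which left 5 residual degrees of freedom (common biological coefficient of variation 0.128). Quasi-likelihood tests were run for 7 comparisons. A call needed a 1.5-fold change and a Benjamini-Hochberg adjusted p below 0.05 over the 14172 genes. The study's own cutoffs gave the fold and the 0.05. CPM refers to the TMM-scaled library total and TPM to the longest coding transcript. Counting errors cover the drawing of reads only.

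The genes, the lists around them and the tests were chosen with earlier results of these data known. All 10 members were named, with every list gene called in the LPS response or at any dose, the nuclear receptors, and the 3 genes most correlated with Plin2, Cd36, Fabp4 and Hilpda. The macrophage markers, Plin4, Plin5, G0s2, Cfd, Retn and Gm6166 were named after their values were seen. Alternatives were DESeq2 size factors, library totals alone, no count filter, a replicate block, DESeq2 1.42.0's Wald test, edgeR on the 4 libraries compared, no fold cutoff, a short-transcript score in the fit and leaving out each library. Leaving out both libraries with epithelial transcripts was added after seeing the data. The steps were tested on simulated data.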

Additional observations from a re-analysis of the deposited data

How the results depend on the processing

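Over 19 alternatives for each comparison, the number of the 10 genes called stayed within 1.5 times the reported number except as follows. With no fold cutoff it was 6 for the LPS response, 5 at 32 µM and 8 for 32 µM with LPS against DMSO, where the reported numbers were 2, 3 and 4. On the 4 libraries compared alone it was 1 at 10 µM, 0 from 10 to 32 µM and 0 from 3.2 to 10 µM, where they were 2, 2 and 1. These fits have fewer libraries and take the spread from the 2 groups compared, and the log2 changes of Plin2 were 1.02 and 0.66 as before. With no count filter and with DESeq2's Wald test the step from 3.2 to 10 µM had 2 called genes, Fabp4 being added. Without both libraries holding epithelial transcripts it was 1 at 10 µM, 1 from 10 to 32 µM and 0 from 3.2 to 10 µM. Leaving out 1 library at a time gave 1 to 2 at 10 µM, 1 to 2 from 10 to 32 µM and 0 to 1 from 3.2 to 10 µM. The lone library of a condition was then assumed to vary like the others.

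No log2 change of these 10 genes turned its sign in a comparison in which the gene was called under any setting, while others did in comparisons where they were never called. Plin2, Fabp4 and Fabp5 at 32 µM, Plin2 at 10 µM and Fabp4 and Hilpda with LPS were called under all 18 alternatives that kept the fold cutoff. So were Plin2, Cd36, Fabp4 and Hilpda at 32 µM with LPS against DMSO. Same-numbered libraries deviated together in the 6 pairs of groups without DMSO + LPS (correlations from 0.10 to 0.57) and in none of the 4 pairs with it (-0.17 to -0.066). The labels do not say that a number marks a shared culture or day, so the numbers were not used to pair the libraries. With a replicate block the numbers of genes called stayed at 2 (LPS), 3, 2 and 0 (32, 10 and 3.2 µM), 2 and 1 (10 to 32 and 3.2 to 10 µM) and 4 (32 µM with LPS against DMSO).

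Over all genes, the count at 10 µM, reported as 122, was 41 on 4 libraries, 232 with the short-transcript score, 52 and 59 without DMSO + LPS replicate 1 and 2, 227 without 10 µM replicate 2 and 45 without both libraries holding epithelial transcripts. At 3.2 µM, reported as 0, it was 66 on 4 libraries, 8 with DESeq2, 6 with the short-transcript score, 1 with no count filter and 1 without DMSO + LPS replicate 2 or either 32 µM library. From 10 to 32 µM, reported as 187, it was 5 on 4 libraries, 297 with the score and 122 without both libraries holding epithelial transcripts. From 3.2 to 10 µM, reported as 36, these gave 0, 109 and 4, and leaving out 1 library gave 5 (3.2 µM replicate 2) to 66 (10 µM replicate 2). With no fold cutoff the counts were 7220 for LPS, 1386, 378 and 0 at 32, 10 and 3.2 µM. Library totals alone shifted the directions in the comparisons with DMSO. For LPS they gave 1582 genes higher and 2938 lower, where the reported numbers were 2072 and 1923. For 32 µM with LPS against DMSO they gave 1490 and 2798, where the reported numbers were 1964 and 1883. The cause of these shifts was not tested. Depth limits Dgat2 and Fabp4 most.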
